A study of Mus musculus with 8 samples.

Results

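The angiopoietins and the Tie receptors were followed as a family of 7 genes in mouse retina, found by gene name among the 57010 genes of the deposited table. The family comprised the angiopoietin ligands Angpt1 and Angpt2, the angiopoietin-like genes Angptl2 and Angptl4, the receptors Tek (also called Tie2) and Tie1, and Ptprb, which encodes the vascular endothelial phosphatase VE-PTP. All 8 libraries came from retinas of C57BL/6J mice aged 17 days. The mice had oxygen-induced retinopathy, in which a spell of high oxygen removes retinal capillaries and the return to room air is followed by abnormal vessel growth. The 4 control libraries (AAV_NC) came from retinas given a control scAAV, a self-complementary adeno-associated viral vector. The 4 knockdown libraries (AAV_sh) carried an scAAV that knocks down lncRNA-MM2P, a long noncoding RNA named for M2 macrophages. Their treatment label reads as a knockout ("AAV KO"), whereas the design text calls it a knockdown. No retina without retinopathy and none without vector was analysed here, the promoter and serotype of the vectors are not stated in these sources, and the labels do not say whether libraries are separate animals, so p-values measure only the spread between these samples, which may be technical.

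Angiopoietin-Tie signalling governs whether vessels are stable or open to remodelling. Angpt1, made mainly by mural and other perivascular cells, activates the receptor kinase Tek on endothelial cells and keeps them quiescent. Angpt2 is made by endothelial cells themselves, is released in hypoxic and sprouting vessels and can act as an antagonist of Tek, while VE-PTP removes the phosphates from Tek. Tie1 is a related receptor with no well-established angiopoietin binding of its own that modulates Tek in the same cells. Angptl2 and Angptl4 share the fibrinogen-like fold but do not bind the Tie receptors: Angptl4 is a hypoxia- and fatty acid-induced inhibitor of lipoprotein lipase, and Angptl2 is a secreted factor linked to inflammation and matrix remodelling.

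Library totals ran from 16.03 to 21.4 M (M, 1000000 estimated counts), and 3 counts corresponded to 0.140 to 0.187 CPM (counts per M). The 7 genes had between 24 and 970 counts per library, all far above this floor. Photoreceptor and glial transcripts checked the tissue label, with the rod transducin gene Gnat1 at 7992 ± 212 TPM (transcripts per M, which adjusts for gene length; SD, n = 4) in the controls and the Müller cell glutamine synthetase gene Glul at 2498 ± 73.6 TPM. The target RNA, listed as Mm2pr, had 1, 1, 16.95 and 7.34 estimated counts in controls 1 to 4. In knockdown 1 to 4 it had 0, 0, 2 and 20.6. Its highest value was in a knockdown library, so it does not check the labels. The summed level of 16 lens genes was 6.9 to 10.9 TPM in the controls and 45.9 to 504.1 TPM in the knockdown libraries.

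The family lies on 6 chromosomes in GRCm38, by GENCODE M21, and all 7 genes are protein-coding. Tek (positions 94739289 to 94874976, plus strand) and Tie1 (118471191 to 118490061, minus strand) share chromosome 4. Angpt1 is on chromosome 15 (42424723 to 42676977, minus strand), Angpt2 on chromosome 8 (18690263 to 18741562, minus), Angptl2 on chromosome 2 (33216069 to 33247717, plus), Angptl4 on chromosome 17 (33773750 to 33781830, minus) and Ptprb on chromosome 10 (116275523 to 116389535, plus). Angpt2 sits inside the opposite-strand gene Mcph1, and Angptl2 inside the opposite-strand gene Ralgps1, without a shared exonic base in either case. Angpt1 shares 737 of its 5205 exonic bases with the antisense gene Gm17473, which had 3.12 counts in knockdown 1 and 0 in the other 7 libraries. Whether the libraries kept strand is not stated in these sources, so reads from these bases cannot be told apart.

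The sequences before the start sites of the member with the smallest p-value, Tek, and of the member with a positive fold change, Angptl2, show what the annotation places upstream of these genes. Both are the 250 bases before the RefSeq start on the gene's own strand in GRCm38.p6, chr4:94739039-94739288 for Tek and chr2:33215711-33215960 for Angptl2, both on the plus strand. Capitals mark GGAA or its reverse complement TTCC, the core bound by ETS factors, a family that includes the endothelial regulators Erg and Ets1.
Tek: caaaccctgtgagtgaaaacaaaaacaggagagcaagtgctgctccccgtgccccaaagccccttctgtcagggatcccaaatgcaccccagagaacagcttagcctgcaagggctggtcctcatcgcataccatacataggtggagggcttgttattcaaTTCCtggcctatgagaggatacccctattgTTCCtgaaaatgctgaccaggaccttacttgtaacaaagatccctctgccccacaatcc
Angptl2: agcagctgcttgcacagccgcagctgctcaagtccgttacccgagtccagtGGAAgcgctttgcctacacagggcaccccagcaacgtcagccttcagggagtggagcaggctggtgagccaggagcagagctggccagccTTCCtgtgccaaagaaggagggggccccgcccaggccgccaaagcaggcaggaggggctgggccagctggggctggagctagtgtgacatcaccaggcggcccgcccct
The Tek window held 2 matches, both as TTCC, and the Angptl2 window held 1 on each strand. A window with at least 2 matches was common, at 76.8% of 32851 RefSeq promoters, with a median of 3. The Tie1 window held 7, a number reached by 3.82% of promoters, but a GENCODE transcript of Tie1 starts inside it, so its letters are not shown. A match is a description of these letters and not a bound site.

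Measured per length, the receptor genes and Angpt2 formed the higher group and the remaining ligands the lower group. Ptprb had 15.8 ± 1.10 TPM (SD, n = 4) in the controls and 13.99 ± 2.74 TPM in the knockdown libraries. It was followed by Tie1 (12.9 ± 1.35 and 11.1 ± 0.898 TPM), Angpt2 (9.98 ± 1.76 and 9.03 ± 1.36 TPM) and Tek (8.74 ± 0.965 and 7.27 ± 0.975 TPM). Angptl2 (3.22 ± 0.611 and 4.34 ± 1.21 TPM), Angptl4 (2.35 ± 0.655 and 2.22 ± 0.723 TPM) and Angpt1 (1.51 ± 0.111 and 1.28 ± 0.416 TPM) came last. The order of the means was the same in both groups. The ranges over libraries of Ptprb and Tie1, of Tie1 and Angpt2, and of Angpt2 and Tek overlapped in both groups. Those of Angptl2 and Angptl4 overlapped in the controls alone, and those of Angptl4 and Angpt1 in the knockdown libraries alone. Within a library, Tie1 was above Angpt2, Tek above Angptl2 and Angptl2 above Angptl4 in all 8 libraries. Ptprb exceeded Tie1 in 7 of 8 (not in knockdown 1), Angptl4 exceeded Angpt1 in 7 (not in knockdown 3) and Angpt2 exceeded Tek in 6 (not in control 4 and knockdown 4), and these differences in level were not tested. These levels rest on the single length that the table gives a gene, which for Ptprb is 7016 of its 13333 annotated exonic bases.

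None of the 7 genes passed the test between knockdown and control retinas. All 7 passed the expression filter, and edgeR's quasi-likelihood test called 0 of them at an adjusted p under 0.05, against 0.062% of the 16118 genes tested (7 higher, 3 lower). The 7 higher genes were all lens genes. DESeq2 called 0 of the 7 members as well, with 45 genes called over all tested. As limma called 0 genes over all tested, its 0 says nothing particular about the members. At an unadjusted p under 0.05 there were 2 members, Tek and Tie1, beside 5.27% of all tested genes. Groups without overlap (every knockdown value outside the control range) were seen for 0 of the 7, and for 3.31% of all genes. Fold changes were negative for 6 of the 7, against 48.2% of all genes, and the median log2 fold change was -0.18, beside 0.00 over all genes. The members were chosen with results of these data known, and this count is a description.

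**Figure D1:**
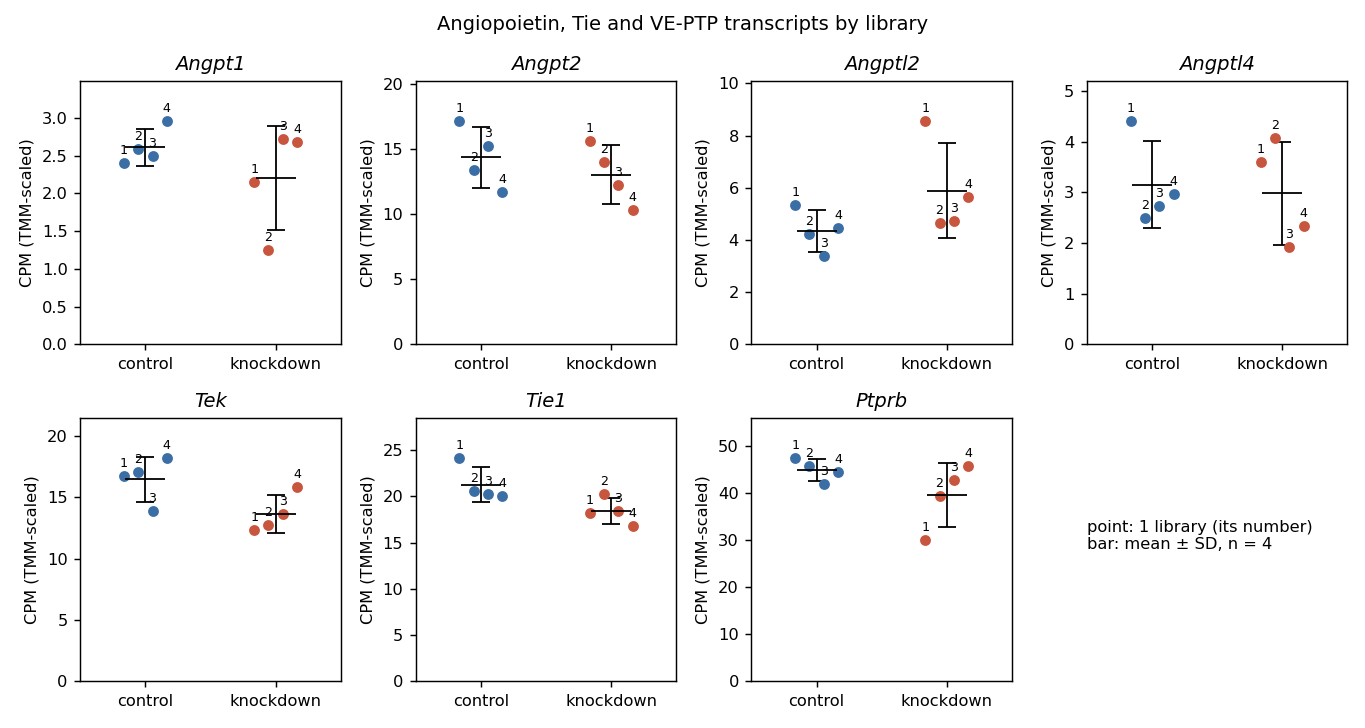
TMM-scaled CPM of each of the 7 genes (y axis, from 0) in the control and knockdown groups (x axis), with 1 point per library, its replicate number, and the mean ± SD (n = 4). The groups overlap in every panel. Tie1 in control 1 (24.2 CPM) lies far from the other controls. Angptl2 in knockdown 1 (8.55 CPM), Ptprb in knockdown 1 (30.06 CPM) and Angpt1 in knockdown 2 (1.25 CPM) are at the ends of their groups but were not flagged as outliers.

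Among the ligands, Angpt1 was the scarcest transcript. Its values were 2.40, 2.59, 2.50 and 2.96 CPM in controls 1 to 4 and 2.15, 1.25, 2.73 and 2.68 CPM in knockdown 1 to 4. Knockdown 2 was the lowest of the 8 libraries, while knockdown 3 and 4 lay inside the control range. The low library had 24 counts, with a 95% exact Poisson interval of 0.801 to 1.86 CPM that covers counting error only. Between the groups the log2 fold change was -0.25 (SE 0.24, 95% interval -0.76 to 0.26, edgeR adjusted p = 0.989). Without knockdown 2 it was -0.05.

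Angpt2, the ligand of remodelling vessels, had 17.1, 13.4, 15.2 and 11.7 CPM in controls 1 to 4, and 15.6, 13.96, 12.2 and 10.3 CPM in knockdown 1 to 4. Both groups spanned much the same range, with the lowest value in knockdown 4 and the highest in control 1. Its log2 fold change was -0.14 (SE 0.14, 95% interval -0.44 to 0.16, edgeR adjusted p = 0.989), which as a ratio is 0.906 with an interval from 0.735 to 1.12.

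The balance of the ligands was read as the ratio of Angpt2 to Angpt1 in TPM, which does not depend on the scaling between libraries. Angpt2 exceeded Angpt1 in all 8 libraries. The ratio was 8.55, 6.18, 7.29 and 4.73 in the controls and 8.70, 13.4, 5.36 and 4.61 in the knockdown libraries. Knockdown 2, the library with the fewest Angpt1 counts, had the highest ratio, and knockdown 4 the lowest. The means were 6.69 ± 1.62 and 8.01 ± 3.99 (SD, n = 4). Between the means of the log2 ratios, on which all ratios were tested, the difference was 0.16, smaller than the spread (exact two-sided permutation p = 0.714; 0.743 adjusted over 6 ratios). The smallest p that 4 against 4 can give is 0.0286. Without knockdown 2 the difference turned to -0.13.

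Angptl4 had 4.41, 2.50, 2.74 and 2.96 CPM in control retinas, against 3.60, 4.06, 1.92 and 2.33 CPM in the knockdown libraries. Control 1 and knockdown 1 and 2 were high, and knockdown 3 was the lowest. The groups overlapped in part, with knockdown 1 and 2 inside the control range and knockdown 3 and 4 below it. The log2 fold change of -0.07 (SE 0.26, 95% interval -0.63 to 0.48, edgeR adjusted p = 0.997) changed sign without control 1 (0.13), without knockdown 3 (0.08) or without knockdown 4 (0.03). No direction can be given for this gene.

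Angptl2 was the member with higher mean levels in the knockdown retinas. Controls 1 to 4 had 5.34, 4.23, 3.40 and 4.44 CPM, against 8.55, 4.64, 4.71 and 5.65 CPM in knockdown 1 to 4. Knockdown 1 stood above the other 7 libraries, whereas knockdown 2 and 3 lay inside the control range. The log2 fold change was 0.44 (SE 0.21, 95% interval -0.01 to 0.88, edgeR adjusted p = 0.930), and 0.20 without knockdown 1. The same library also had the highest summed levels of the macrophage and microglia list (126.0 TPM, against 86.2 to 115.5 elsewhere) and of the erythrocyte list (640.0 TPM, against 314.8 to 461.6). The glial intermediate filament gene Gfap, chosen after its values were seen, was at 135.2 CPM there against 32.3 to 66.8 CPM elsewhere. Their part in the Angptl2 value was not tested.

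**Figure D2:**
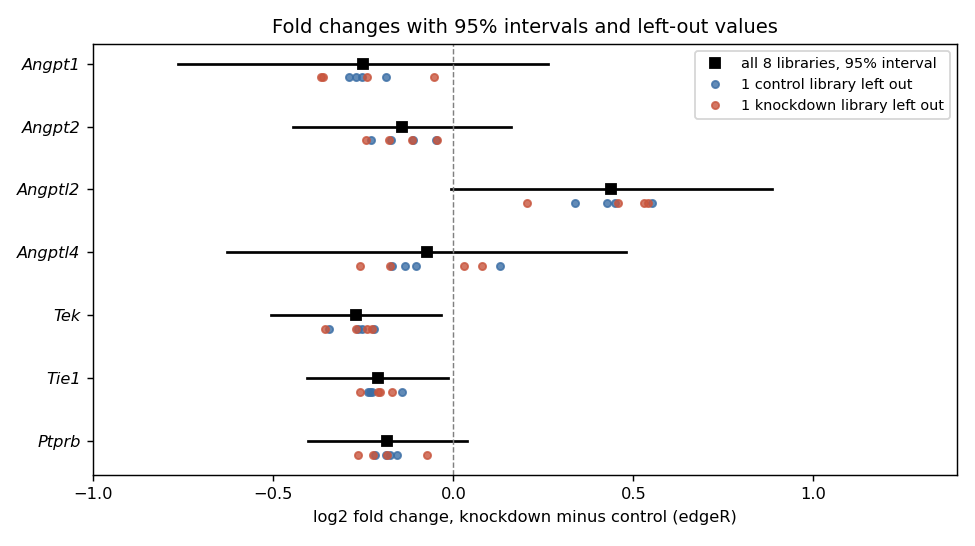
edgeR log2 fold change of each gene, knockdown minus control (x axis), for all 8 libraries (square, with its 95% interval) and with 1 library left out at a time (points). The intervals of Tek and Tie1 lie below 0 before adjustment; the left-out values of Angptl4 fall on both sides of 0.

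Tek, the angiopoietin receptor, had the smallest p-value of the family. Its fold change and that of Angpt1 lay close together, and which of them was the more negative changed with the setting and with the library left out. Controls 1 to 4 had 16.7, 17.1, 13.9 and 18.2 CPM, against knockdown values of 12.4, 12.7, 13.6 and 15.9 CPM. Control 3 and knockdown 4 were the libraries that made the groups overlap. The log2 fold change was -0.27 (SE 0.11, 95% interval -0.51 to -0.04), a ratio of 0.828, with an unadjusted p of 0.0272 and an edgeR adjusted p of 0.897. It kept its sign without any 1 library, from -0.36 to -0.22.

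Tie1 had 24.2, 20.6, 20.3 and 20.1 CPM in controls 1 to 4, and 18.2, 20.2, 18.4 and 16.8 CPM in knockdown 1 to 4. The overlap came from knockdown 2, which lay just above control 4, and control 1 lay apart from the other controls. For Tie1 the log2 fold change was -0.21 (SE 0.09, 95% interval -0.41 to -0.01), a ratio of 0.864, with an unadjusted p of 0.0370 and an edgeR adjusted p of 0.911. With control 1 left out it was -0.14.

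Ptprb had 47.5, 45.7, 41.9 and 44.5 CPM in control retinas, against 30.1, 39.4, 42.7 and 45.8 CPM in the knockdown libraries. Knockdown 1 was the lowest, and knockdown 3 and 4 lay within the control range. The log2 fold change of -0.18 (SE 0.10, 95% interval -0.40 to 0.04, edgeR adjusted p = 0.951) became -0.07 without knockdown 1. This is the library with the high Gfap, macrophage and erythrocyte levels given for Angptl2, and their part in the Ptprb value was not tested.

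The proportions of the receptors to each other were alike in size across the libraries. Tie1 over Tek, in TPM, was 1.64, 1.37, 1.66 and 1.25 in the controls and 1.67, 1.81, 1.54 and 1.21 in the knockdown libraries. Libraries 4 of both groups had the lowest ratios and the groups overlapped (log2 difference 0.06, exact two-sided permutation p = 0.743, adjusted p = 0.743). Ptprb over Tek ranged from 1.62 to 2.001 in the controls and from 1.61 to 2.08 in the knockdown libraries (log2 difference 0.07, exact two-sided permutation p = 0.486, adjusted p = 0.743).

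**Figure D3:**
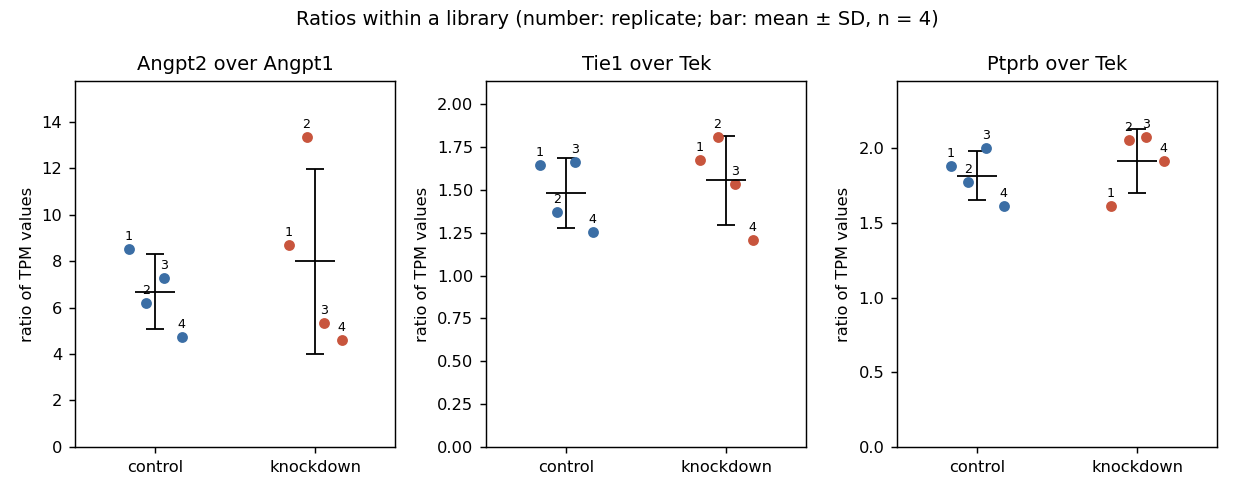
Ratios of TPM values within each library (y axes, from 0) for Angpt2 over Angpt1, Tie1 over Tek and Ptprb over Tek in the control and knockdown groups, with the replicate number at each point and the mean ± SD (n = 4). The groups overlap in all 3 panels, and knockdown 2 has the highest Angpt2 over Angpt1 ratio, 13.4.

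Endothelial markers, which share a cell type with the receptors, were read beside the family. The fold change was negative for 18 of 19 endothelial markers, against 48.2% of all tested genes, and their median log2 fold change was -0.20. Without 1 library at a time, 16 to 19 were negative, and the median stayed between -0.22 and -0.15. edgeR called 0 of the 19, with 7 at an unadjusted p under 0.05, beside 5.27% of all tested genes. Groups without overlap were seen for 3 of the 19, and for 3.31% of all genes. The list was chosen with earlier results of these data known, and these counts are descriptions. The tight junction gene Cldn5, chosen after its values were seen, averaged 35.1 ± 1.34 CPM in control and 29.9 ± 2.56 CPM in knockdown retinas (edgeR log2 fold change -0.23 with SE 0.07; adjusted p = 0.647). The named markers with the highest levels, the VEGF receptor gene Kdr and the sialomucin gene Podxl, had log2 fold changes of 0.02 and -0.01. Summed over the list, the controls had 552.6, 520.0, 503.2 and 470.3 TPM and the knockdown libraries 468.7, 493.6, 484.0 and 476.8 TPM. These sums overlapped between the groups. In bulk retina and with 0 markers called, no difference between the groups, fewer endothelial cells and less RNA per cell cannot be told apart.

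Relative to this endothelial sum, the differences of the receptors between the groups did not pass the test. The sum leans on Kdr and Podxl, which made up 40.7% to 47.5% of it and had log2 fold changes of 0.02 and -0.01. The median over the list was -0.20, and ratios to the mean log2 level of the markers were not tested. Tek was 1.72% ± 0.227 of the sum in the controls and 1.51% ± 0.206 in the knockdown libraries (SD, n = 4; exact two-sided permutation p = 0.229, adjusted p = 0.686). Tie1 was 2.51% ± 0.111 and 2.31% ± 0.141 (exact two-sided permutation p = 0.114, adjusted p = 0.686), and Ptprb 3.09% ± 0.136 and 2.91% ± 0.551 (exact two-sided permutation p = 0.600, adjusted p = 0.743). As a covariate in edgeR, the log2 of the markers' summed CPM was used in place of their summed TPM. With this covariate the log2 fold changes of Tek and Tie1 were -0.36 and -0.12, and those of Angpt2 and Angptl4 turned to 0.08 and 0.21. All had an edgeR adjusted p of 0.9995.

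Library by library, which member followed the endothelial markers most closely depended on how the markers were combined. With their summed TPM it was Tie1. Over the 8 libraries Pearson's r of the log2 TPM values was 0.923 for Tie1 (exact permutation p = 0.0012; 0.0082 adjusted over 7 members) and Spearman's rho was 0.857 (exact permutation p = 0.0107, adjusted p = 0.0750). It was 0.886 on deviations from the group means, and 0.716 without control 1 and 2, the libraries farthest from the median. For Tek r was 0.395 and for Ptprb 0.541 (exact permutation p = 0.338 and 0.162; adjusted p = 0.473 and 0.379), with rho of 0.381 and 0.619 (p = 0.360 and 0.115). Angpt2 had an r of 0.691 (exact permutation p = 0.0565, adjusted p = 0.198) and a rho of 0.524 (p = 0.197). The difference between these correlations was not tested. On deviations from the group means, Angpt2 had an r of 0.656 with the summed TPM. With summed CPM, again on deviations, r was 0.893 for Angpt2 and 0.790 for Tie1. It was -0.561 for Tek and -0.205 for Ptprb, so the closest member also changed with the unit. Kdr and Podxl made up 40.7% to 47.5% of the TPM sum. With the mean log2 TPM of the 19 markers in its place, the r of Tie1 was 0.758 (exact permutation p = 0.0268, adjusted p = 0.112), and 0.113 without control 1 and 2, so the relation rested on those libraries. On that measure r was 0.739 for Tek and 0.680 for Ptprb (exact permutation p = 0.0319 and 0.0611; adjusted p = 0.112 and 0.143), and 0.715 and 0.801 without control 1 and 2. Spearman's rho with the mean was 0.833 for Ptprb, 0.714 for Tek and 0.571 for Tie1 (exact permutation p = 0.0154, 0.0576 and 0.151; adjusted p = 0.108, 0.202 and 0.353).

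**Figure D4:**
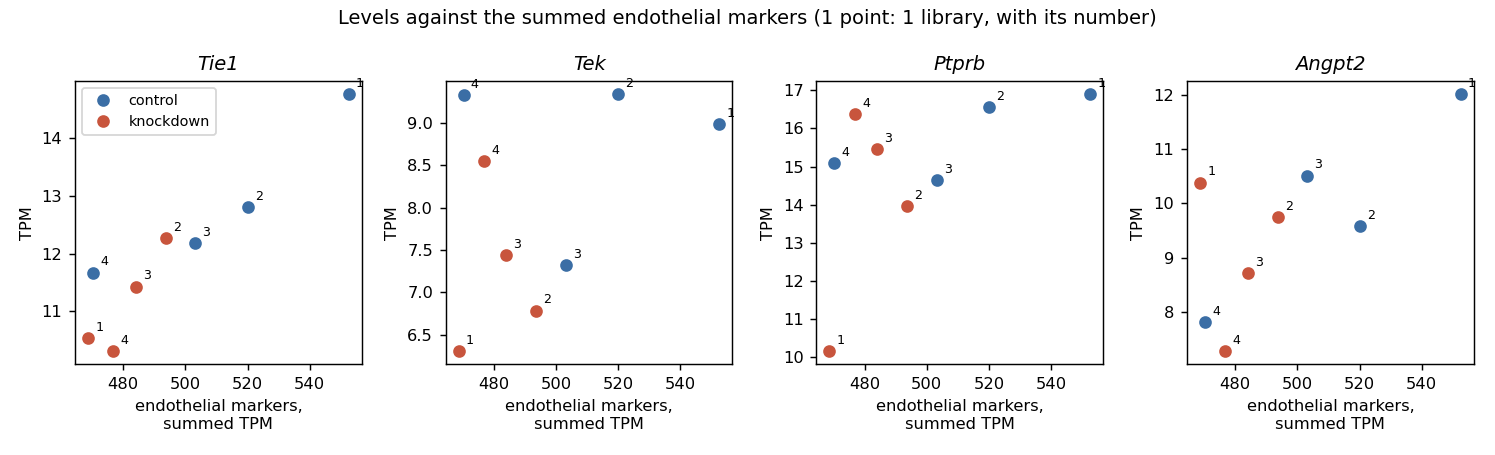
TPM of Tie1, Tek, Ptprb and Angpt2 (y axes, not from 0) against the summed TPM of 19 endothelial markers (x axis), 1 point per library with its replicate number. Tie1 rises with the sum (r = 0.923, n = 8), with control 1 at the upper end of both, and Tek has r = 0.395. With the mean log2 TPM of the markers, which is not drawn, r was 0.758 for Tie1 and 0.739 for Tek.

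In the wider pathway no gene was called. Of 18 genes that carry the Tek signal 16 were tested, with 0 called by edgeR and 0 at an unadjusted p under 0.05. Their fold changes lay between -0.07 and 0.16 on the log2 scale, with a median of 0.01. The most abundant was the adaptor gene Crk at 112.7 ± 5.79 and 110.5 ± 2.57 TPM (SD, n = 4, controls and knockdown). The smallest p belonged to Pik3r1, the regulatory subunit of PI3-kinase, at 60.8 ± 0.946 and 63.9 ± 4.06 TPM (edgeR log2 fold change 0.07 with SE 0.05; adjusted p = 0.989). Dok2, an adaptor recruited to Tek, averaged 9.5 and 8 counts and was not tested.

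Among 10 regulators of the axis 8 were tested and 0 called, with a median log2 fold change of -0.04. Ets1, an ETS factor gene, had 37.99 ± 4.87 and 37.1 ± 3.75 TPM, and Mmp14, a membrane-bound protease that can shed Tek, had 33.02 ± 1.16 and 36.4 ± 3.86 TPM. Gata2, an endothelial and haematopoietic transcription factor gene, had 1.58 ± 0.263 and 0.996 ± 0.351 CPM (log2 fold change -0.66, SE 0.29, unadjusted p = 0.0402, edgeR adjusted p = 0.919). Svep1, whose product is a ligand of Tie1, averaged 11 and 6.5 counts and was below the filter.

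Of 5 integrin genes whose products angiopoietins can bind, 4 were tested and 0 called, with a median log2 fold change of -0.02. Itgb1 had 103.9 ± 6.63 and 103.6 ± 5.82 TPM, and Itgb5 42.2 ± 2.65 and 41.5 ± 3.87 TPM. Itga5, the α5 subunit, had 5.12 ± 0.447 and 4.43 ± 0.352 TPM (log2 fold change -0.21, SE 0.11, edgeR adjusted p = 0.951).

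Around Angptl4, 11 of 13 genes of the lipoprotein lipase system and the PPAR targets were tested and 0 were called, with a median of -0.05. Cpt1a, the carnitine palmitoyltransferase of fatty acid oxidation, had 125.5 ± 4.66 and 129.1 ± 1.23 TPM, and Acadm, an acyl-CoA dehydrogenase gene, 82.3 ± 4.42 and 79.7 ± 3.86 TPM. Of the 6 other angiopoietin family genes, Angptl6 (4.38 ± 0.680 and 3.53 ± 0.398 TPM) and Angpt4 (1.19 ± 0.344 and 1.35 ± 0.388 TPM) were tested and did not pass. Angptl1 and Angptl7 averaged 2.25 to 7.47 counts per group, and Angptl8 was at 0 in all 8 libraries.

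**Figure D5:**
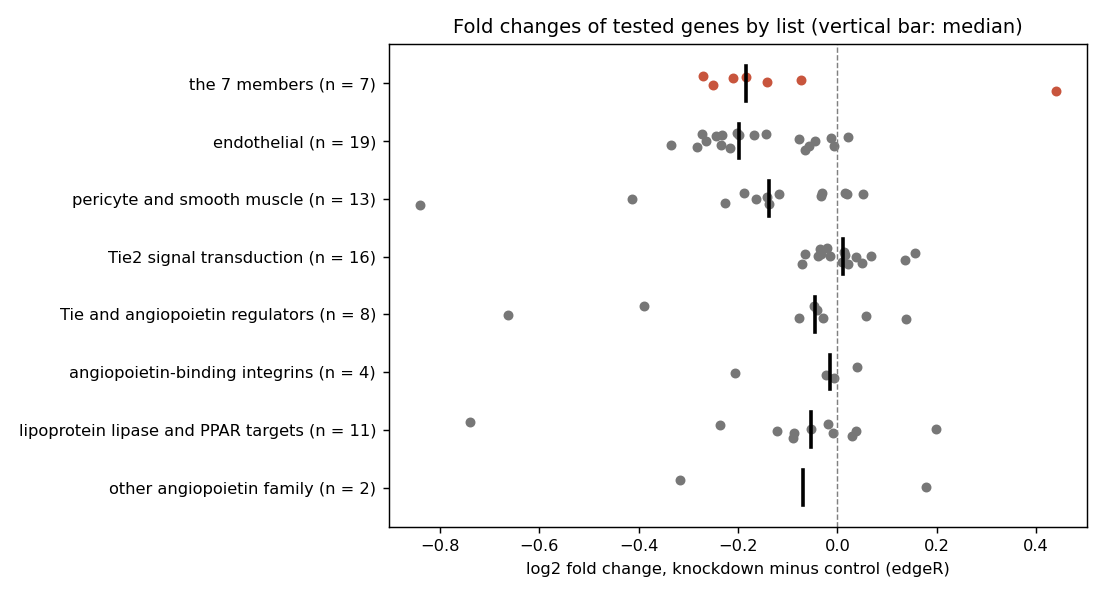
edgeR log2 fold changes (x axis) of the tested genes of each list, with 1 point per gene and a vertical bar at the median. The 7 members (median -0.18) and the endothelial markers (-0.20) sit to the left of 0, while the 16 signalling genes (0.01) lie close to it.

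Markers of other cell types were described by counts and medians of log2 fold changes. Over all tested genes, 48.2% had a negative fold change and 5.27% an unadjusted p under 0.05 in edgeR. The pericyte and smooth muscle list, from the cells that are a main source of Angpt1 elsewhere, had 10 of 13 genes negative, 0 called and a median of -0.14. At an unadjusted p under 0.05 in edgeR there were 4, all lower. The summed levels of the list, mostly Vtn, were 812.5 ± 29.4 and 744.2 ± 25.7 TPM (SD, n = 4). This sum thus mainly follows Vtn, and whether Vtn came from mural cells was not tested. Its most abundant genes were Vtn at 537.3 ± 17.7 and 496.5 ± 30.6 TPM and Rgs5 at 204.0 ± 16.4 and 185.6 ± 9.63 TPM. No gene was called among 12 macrophage and microglia genes (median 0.00), 9 Müller glia and astrocyte genes (0.02), 6 horizontal cell genes (0.05), 9 retinal pigment epithelium genes (0.00), 10 photoreceptor genes (-0.08) or 5 erythrocyte genes (0.31). Of the retinal pigment epithelium genes, 2 were higher and 2 lower at an unadjusted p under 0.05 in edgeR. By that measure 1 macrophage and microglia gene was lower and 1 erythrocyte gene higher. All 10 photoreceptor genes had a negative fold change, 2 of them at an unadjusted p under 0.05, with summed levels of 34487 ± 722 and 32723 ± 1086 TPM. In the lens list 7 of 13 tested genes were called, all higher, with a median of 6.03. Each of the 7 called lens genes was below 1 TPM in every control. They passed the expression filter only through the knockdown libraries, so their direction was tied to the filter and this count is a description. The part of the listed cell types in the levels of the 7 members was not tested.

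The genes most alike each member were taken by Pearson's r between deviations of log2 CPM from the group means over the 8 libraries, among 11534 genes with a mean of at least 5 CPM, leaving out predicted genes, RIKEN clones and IDs without a gene name. With so many genes compared, high values of r arise readily, and these are descriptions. Angptl2 was most like Rhoj, a small GTPase gene of endothelial cells (0.994), Rgs12 (0.976) and the laminin gene Lama1 (0.967). Ptprb was most like the collagen gene Col7a1 (0.989), Usp54 and the neuropeptide gene Vip. For Angptl4 the nearest gene was Taf6 (0.980), for Angpt1 Arl4a (0.975), for Tek Cln3 (0.964), and for Angpt2 Eif2b2 (0.958), with the matrix crosslinking enzyme gene Loxl2 (0.941) close behind. Tie1 was most like the histone demethylase gene Kdm3a (0.973), Lmo2, a transcriptional regulator of blood and endothelial cells (0.972), and Nell1 (0.968). None of these lists named another of the 7 members.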

How the data were processed

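RNA was measured in 8 retinal libraries. Despite a name that says TPM, the deposited table lists estimated counts for each gene, since its columns sum to 16.03 to 21.4 M (M, 1000000) and 90.6% to 91.9% of entries are whole. Per the submitters' processing notes, Bowtie 0.12.2 and mm9 are named, with no role stated; the counting tool is not given in the sources used here. The gene length in the deposited table is that of 1 transcript for each of the 7 genes.

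Counts were rounded, TPM was computed from counts and lengths, and the 16118 genes with at least 1 TPM in at least 4 libraries were tested in edgeR 4.0.16 (R 4.3.3; quasi-likelihood; TMM; group as the only term; Benjamini-Hochberg over all genes; called under 0.05). SE values were derived from the fold change and the F statistic, and 95% intervals use edgeR's total degrees of freedom. CPM are scaled by TMM. Ratios were compared on the log2 scale by exact permutation over all 70 assignments of libraries, adjusted over 6. edgeR was tested on simulated data. The members, lists (5 pathway, 9 cell type) and tests were chosen with earlier results of these data known; the relation to endothelial markers was added after seeing the values. Named genes were the members, the 2 most abundant tested genes of a list or its called ones, the smallest p of a pathway list, and the 3 genes most alike each member; others are marked. Alternatives were DESeq2 1.42.0, limma 3.58.1 on log2(TPM + 1) and log2(TPM + 0.1), other scalings, filters and covariates, a replicate block and left-out libraries. Positions come from GENCODE M21 (GRCm38) and promoters from RefSeq (GRCm38.p6), which held 3 of the 7 genes. Poisson intervals of counts cover counting error only. Some genes that the naming rule covers are not reported here.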

Additional observations from a re-analysis of the deposited data

Results flagged for a closer look

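Tie1 in control 1, at 24.2 CPM, lay far from the other controls, which had 20.1 to 20.6 CPM. It was the 1 group so marked among 26 groups of 4 libraries examined, where chance marks about 1 in 20.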

How the results depend on the processing

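The number of the 7 genes called was 0 in edgeR and in every one of the 19 alternatives, with adjusted p-values from 0.531 upward, and 125 of 130 alternative fold changes kept their direction. Exceptions were Angptl4 and Angpt2. Angptl4 was at 0.13, 0.08 and 0.03 without control 1, knockdown 3 and knockdown 4 (range of left-out values -0.26 to 0.13). With the summed CPM of the endothelial markers as a covariate, Angptl4 was at 0.21 and Angpt2 at 0.0817. The cause was not tested. With 1 library left out, the log2 difference of Angpt2 over Angpt1 ran from -0.13 to 0.39, of Tie1 over Tek from -0.0142 to 0.18 and of Ptprb over the endothelial sum from -0.20 to 0.0248. In the same settings 0 to 1 of the 7 genes had groups that did not overlap. The share over all tested genes was not computed there, so this count cannot be read as a result about the members. The count of genes called over all tested, 10, became 45 in DESeq2, 0 in limma with either pseudocount (1 or 0.1) and 157 with no expression filter. It became 1 with a mean TPM of at least 5, and 0 with the summed CPM of the endothelial markers as a covariate. With 1 library left out it was 0 to 58, and without control 3 and knockdown 1 it was 69. Same-numbered libraries did not deviate together (correlations from -0.16 to 0.01). This cannot exclude a pairing with little effect on expression, and the labels state no pairing. With the replicate block edgeR called 11 genes and 0 of the 7, and the blocked permutation of the ratios gave adjusted p-values of 0.750 to 0.875. At 24 to 90 counts per library, depth limits what can be seen for Angpt1 and Angptl4.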
